A study of Mus musculus with 6 samples.

Results

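Integrins are the receptors by which blood cells hold on to the matrix, to vessel walls and to each other. The 34 genes described here are 24 integrin chains (16 alpha and 8 beta) and 10 other adhesion genes: ligands and counter-receptors, membrane partners of integrins, and the cytoplasmic proteins that switch integrins on. The genes were listed by symbol, with no rule on their values. Each was read from the probe set annotated to that gene alone, and for Cd9, Itgav and Selplg, which had 2 such probe sets each, from the one with the highest mean. All 34 were measured, out of 22180 genes with a probe set of their own.

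The cells were leukemic mouse spleen cells sorted for c-Kit, the receptor of stem cell factor. Every mouse carried Mx1-Cre, a Cre recombinase switched on by interferon, and Cbfb+/56M, a conditional knock-in of the CBFB-MYH11 fusion of inv(16) acute myeloid leukemia. The control group carried no further allele in its labels (Mx1-Cre, Cbfb+/56M, 3 samples), and in the other group both alleles of the chromatin remodeller gene Chd7 were floxed as well (Chd7f/f, Mx1-Cre, Cbfb+/56M, 3 samples). Mice of both genotypes were given the mutagen ENU and pIpC, which induces interferon, and the cells were taken at end-stage disease. No age is given for the animals. Mx1-Cre is also active outside blood cells, and the part of Chd7 that Cre removes is not given in the sources used here. The samples, called leukemias below, are described as independent, but it is not stated that each came from a mouse of its own, and p-values therefore cover only the spread from sample to sample, which may be technical. Chd7 itself was at 6.17, 7.54 and 5.32 in the control and at 5.48, 6.50 and 5.91 in Chd7f/f leukemias, so its level did not part the genotypes (difference -0.38, SE 0.58; limma, adjusted p = 0.9998). Its probe set covers a whole transcript and may lie mostly outside the deleted stretch, so it checks the labels in neither direction.

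An integrin is a pair of 1 alpha and 1 beta chain, and a chain that lacks its partner does not reach the surface. Beta2 integrins are confined to leukocytes and bind ICAMs and complement. Alpha4 and alpha5 with beta1 bind VCAM-1 and fibronectin and retain progenitors in the marrow, and alphaIIb with beta3 is the fibrinogen receptor of platelets. Integrins rest in a bent, inactive form until talin and kindlin bind the beta tail.

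Levels were summarised by RMA in log2 units, so 1 unit is a 2-fold change, and differences are Chd7f/f minus control. An array level depends on the probes of its gene, so levels are set against each other only within a gene. Whether a gene was read above background was judged on each array against 1420 probe sets of olfactory, vomeronasal and trace amine receptors, which blood cells are not known to use. Their 95th percentile, called the background limit, lay between 4.62 and 4.83 on the 6 arrays. The median of all probe sets was just above it on each array, at 4.72 to 4.84, so passing the limit is a low bar. With so few arrays the precision is limited, and an exact permutation of 3 against 3 samples cannot give a two-sided p below 0.1.

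The marker genes of other cell types were read the same way. Kit was between 11.68 and 12.48 on the 6 arrays. All 10 measured erythroid markers and 7 of 11 mast cell and basophil markers were above the background limit on every array, among them Cpa3, a mast cell protease gene, between 12.92 and 13.09. Of 12 neutrophil markers 5 were above the limit on every array (Ngp, Lcn2, Mmp8, Cxcr2 and Cybb), and Ly6g, Camp, Mmp9 and Retnlg were under it on every array. T and NK cell markers were above it on every array in 4 of 12 cases, B cell markers in 2 of 9 and endothelial markers in 4 of 11. In a bulk sample fewer cells of a type and less RNA per cell cannot be told apart.

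Of the 34 genes, 24 were above the background limit on all 6 arrays, 4 on some arrays and 6 on none. The 24 were 14 integrin chains and the 10 other adhesion genes. The 6 under the limit on every array were the collagen and laminin receptor chains Itga1, Itga2 and Itga3, and Itga8, Itgb6 and Itgb8, which pair as receptors of RGD ligands. Itgam was above it on 4 arrays, Itgad on 2, and Itgae and Itgb5 on 1 each. With a limit at the 99th percentile, between 6.24 and 6.57, only 14 of the 34 genes were above it on every array.

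**Figure D1:**
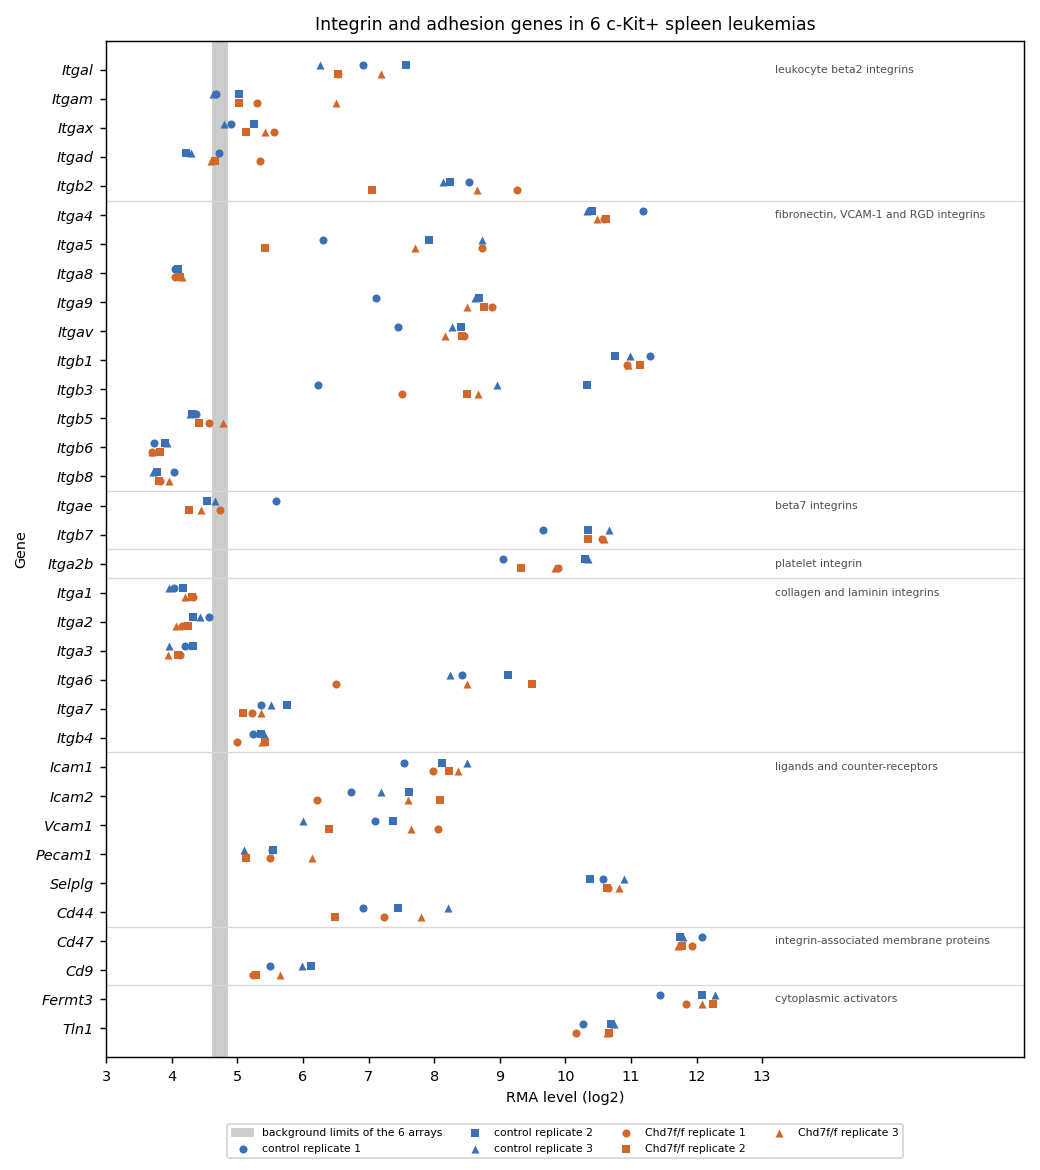
RMA levels (log2) of the 34 genes on the 3 control (blue) and 3 Chd7f/f arrays (orange), 1 symbol per array and grouped by role, with the span of the 6 background limits in grey. Itga1, Itga2, Itga3, Itga8, Itgb6 and Itgb8 lie left of the grey band, and Itgb3, Itga5 and Itga6 spread the most between leukemias.

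Among 22 textbook integrin pairs, 12 had both chains above the limit on every array. Itgb1, the shared chain of the largest integrin family, had 6 such partners of 10: Itga4, Itga5, Itga6, Itga7, Itga9 and Itgav. Itgb2 had Itgal (LFA-1) and Itgax, Itgb3 had Itga2b and Itgav, Itgb4 had Itga6, and Itgb7 had Itga4. At the 99th percentile 5 pairs were left, Itgb1 with Itga4, Itga6, Itga9 and Itgav, and Itgb7 with Itga4. Messenger RNA of both chains does not show that the pair was on the surface.

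**Figure D2:**
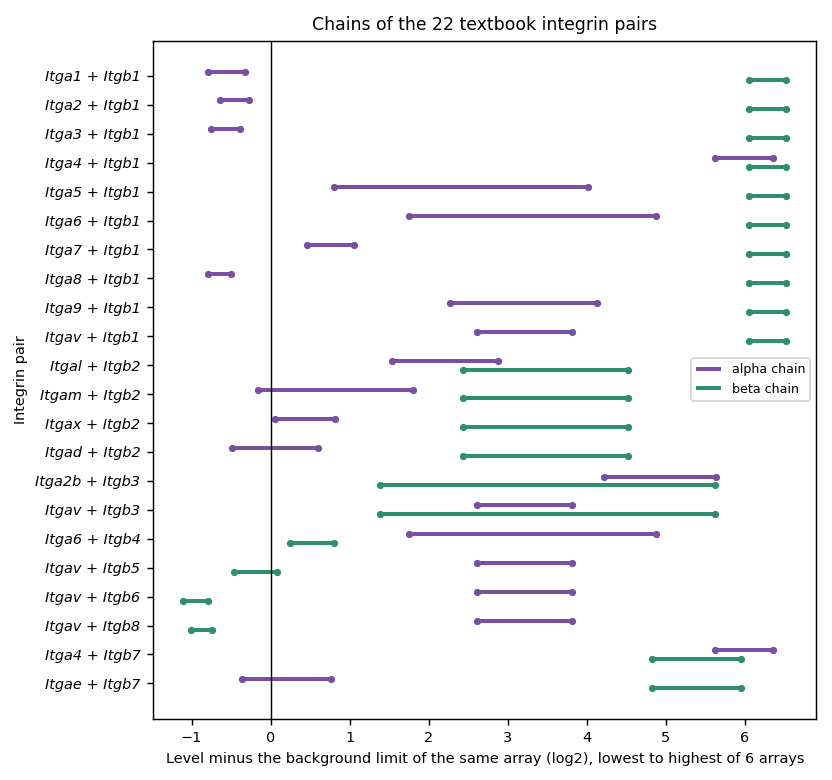
For each of 22 textbook integrin pairs, the level of the alpha (purple) and beta chain (green) minus the background limit of the same array (log2), drawn from the lowest to the highest of the 6 arrays; the vertical line at 0 is the limit. The 12 pairs with both bars to the right of 0 have both chains above the limit on every array, and bars of different genes are not compared in height.

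The chains of the VCAM-1 receptor VLA-4 had ranges over the 6 arrays of 0.86 (Itga4) and 0.54 (Itgb1). Itga4, the alpha4 chain shared by VLA-4 and the gut-homing alpha4beta7, was at 11.19, 10.40 and 10.33 on the control arrays and at 10.59, 10.62 and 10.49 on the Chd7f/f arrays. Itgb1 was at 11.29, 10.75 and 10.98 in the control and at 10.95, 11.14 and 10.96 in Chd7f/f leukemias. Both were highest in control replicate 1, and the genotypes overlapped. The difference of Itga4 was -0.07 (SE 0.24) and that of Itgb1 0.0049 (SE 0.17), within the spread between leukemias (limma, adjusted p = 0.9998 each). Without control replicate 1 Itga4 turned to 0.20.

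Itgb7, the beta chain of alpha4beta7 and of alphaEbeta7, was at 9.66, 10.34 and 10.67 in the control and at 10.56, 10.34 and 10.59 in Chd7f/f leukemias. Control replicate 1 was the low one and the other 5 arrays lay close together. Its partner Itgae, which with Itgb7 binds E-cadherin, reached 5.59 in control replicate 1, above the limit of that array, and stayed at 4.26 to 4.74, under the limit, on the others. The difference of Itgb7 was 0.27 (SE 0.27), and -0.0083 without control replicate 1.

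Itgb3 varied more than any other of the 24 genes above the limit. This chain of the fibrinogen and vitronectin receptors was at 6.22, 10.33 and 8.96 on the control arrays and at 7.50, 8.50 and 8.66 on the Chd7f/f arrays. Its range of 4.11 is a 17.2-fold difference between control replicates 1 and 2, both of the same genotype. The mean was 8.50 ± 2.09 (SD, n = 3) in the control and 8.22 ± 0.63 (SD, n = 3) in Chd7f/f leukemias, a difference of -0.28 (SE 1.02; limma, adjusted p = 0.9998). That difference was -1.42 without control replicate 1 and 0.63 without control replicate 2.

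The alpha partners of Itgb3 moved over a narrower span. Itga2b, which encodes CD41 and marks megakaryocytes as well as early progenitors, was at 9.05, 10.30 and 10.34 in the control and at 9.89, 9.32 and 9.84 in Chd7f/f leukemias. Itgav, the alpha chain of the RGD receptors, was at 7.44, 8.41 and 8.27 in the control and at 8.46, 8.43 and 8.16 in Chd7f/f leukemias. Control replicate 1 was the lowest array for all 3 genes, and the genotypes overlapped for each. Beside them, 3 of 9 measured megakaryocyte and platelet markers were above the limit on every array. These were Gp5 (8.64 to 10.62), Gp9 (6.41 to 10.81) and Treml1 (5.97 to 7.66). In control replicate 1 Gp9 and the mean of the list were highest, and Gp5 and Treml1 were lowest. The mean log2 level of that marker list was between 5.4 and 5.58 on the control arrays and between 5.20 and 5.53 on the Chd7f/f arrays. Pf4, Gp6, Ppbp and Clec1b, genes of mature megakaryocytes and platelets, were under the limit on every array.

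The fibronectin receptor chain Itga5 stood out by a different leukemia. It was at 6.31, 7.93 and 8.73 in the control and at 8.73, 5.42 and 7.70 in Chd7f/f leukemias, a range of 9.94-fold. Chd7f/f replicate 2 was the lowest array, followed by control replicate 1. Itga9, which with Itgb1 binds VCAM-1, tenascin and osteopontin, was low in control replicate 1, at 7.11, where the other 5 arrays read 8.50 to 8.88. The differences were -0.37 (SE 0.97) for Itga5 and 0.57 (SE 0.43) for Itga9. Without Chd7f/f replicate 2 Itga5 turned to 0.56, and without control replicate 1 Itga9 was at 0.055.

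Itga6, the alpha6 chain of laminin receptors and a marker of stem cells, was at 8.42, 9.12 and 8.25 in the control and at 6.50, 9.49 and 8.50 in Chd7f/f leukemias. The lowest and the highest of its 6 values were both in Chd7f/f leukemias, 7.97-fold apart. Its difference of -0.43 (SE 0.74) turned to 0.40 without Chd7f/f replicate 1 and went to -1.10 without Chd7f/f replicate 2. In Chd7f/f replicate 1 the mean log2 level of the cycling markers, all 9 of which were above the limit on every array, was 7.96, against 9.60 to 10.20 on the other arrays; its part in the level of Itga6 was not tested. Itga7 and Itgb4, further laminin receptor chains, were at 5.08 to 5.75 and 4.99 to 5.43, above the 95th but under the 99th percentile limit on every array.

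The leukocyte integrins share Itgb2, whose loss causes leukocyte adhesion deficiency. Itgb2 was at 8.54, 8.23 and 8.13 in the control and at 9.26, 7.05 and 8.66 in Chd7f/f leukemias, so the highest and the lowest leukemia were again of one genotype. Itgal, the alpha chain of LFA-1, was at 6.92, 7.57 and 6.25 in the control and at 6.53, 6.53 and 7.19 in Chd7f/f leukemias, and the genotypes overlapped. The differences were 0.025 (SE 0.55) and -0.16 (SE 0.37). Itgb2 turned to -0.44 without Chd7f/f replicate 1 and was 0.66 without Chd7f/f replicate 2.

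Itgam, Itgax and Itgad, the alpha chains of the complement receptors and their relative alphaD, are neighbours on chromosome 7 in the RefSeq annotation, with no protein-coding gene between them. Itgam (Mac-1) was at 4.68, 5.02 and 4.63 in the control and at 5.30, 5.02 and 6.50 in Chd7f/f leukemias. Itgax (p150,95) was at 4.90, 5.26 and 4.80 in the control and at 5.56, 5.13 and 5.42 in Chd7f/f leukemias. Itgad was at 4.71, 4.22 and 4.29 in the control and at 5.35, 4.66 and 4.59 in Chd7f/f leukemias.

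All 3 had a positive difference, 0.83 (SE 0.39) for Itgam, 0.38 (SE 0.18) for Itgax and 0.46 (SE 0.25) for Itgad, and none passed the test (limma, adjusted p = 0.9998 each). Each had at least 1 Chd7f/f value within the range of the control. Without Chd7f/f replicate 3 Itgam was at 0.38, and without Chd7f/f replicate 1 Itgad was at 0.22. The monocyte and macrophage markers, 12 of 15 of which were above the limit on every array, had a mean log2 level of 5.55 to 6.32 on the control arrays and of 5.87 to 6.98 on the Chd7f/f arrays. The highest list mean was in Chd7f/f replicate 3, the array with the highest Itgam. Adgre1, the gene of the macrophage antigen F4/80, was at 5.51 there against 4.72 to 4.98 elsewhere. Other markers of that list, Cd68, Cd14, C1qc and Cx3cr1, were not highest there, and Cd68 was at 8.21 against 8.46 in control replicate 2. The neutrophil list also had its highest mean in Chd7f/f replicate 3, at 5.86. Its next highest was 5.15, in control replicate 2. The part of monocytes, macrophages or neutrophils in these levels was not tested.

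**Figure D3:**
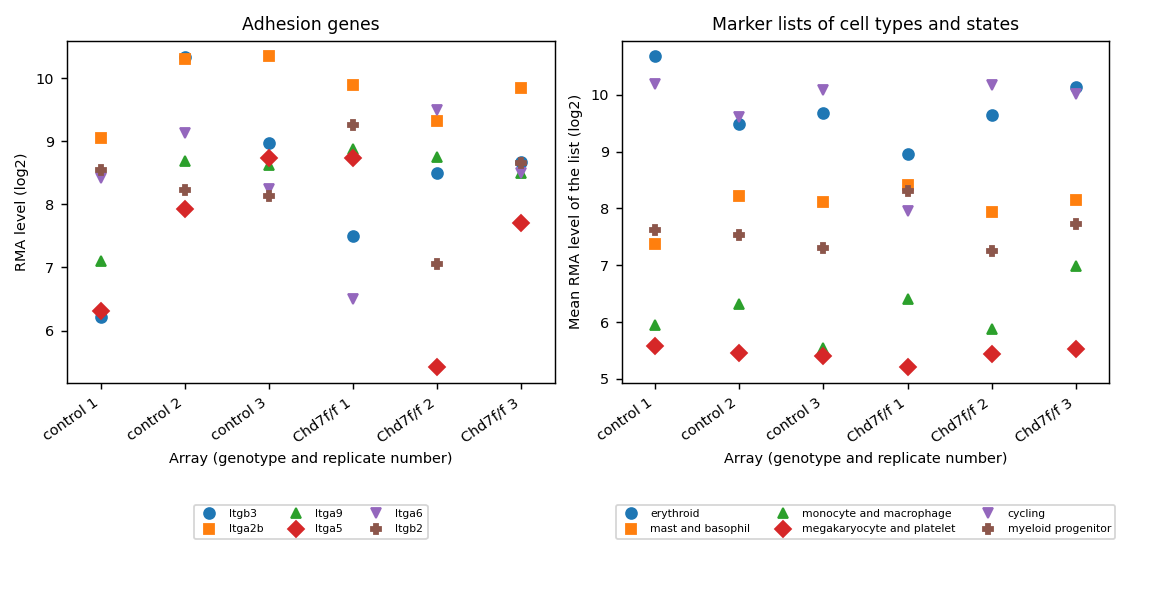
Left, RMA levels (log2) of 6 adhesion genes on each array; right, mean RMA level (log2) of the measured members of 6 marker lists on the same arrays, with 1 point per array and no averaging over arrays. Control replicate 1 has the lowest Itgb3, Itga2b and Itga9 and the lowest mast cell and basophil mean (7.38), and Chd7f/f replicate 1 has the lowest Itga6 and the lowest cycling mean (7.96).

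Ligands and counter-receptors were all above the limit. Selplg, which encodes the selectin ligand PSGL-1, lay between 10.38 and 10.89 on the 6 arrays, and Icam1, a ligand of LFA-1 and Mac-1, between 7.53 and 8.50. Vcam1, the ligand of alpha4 integrins and a gene of red pulp macrophages and stroma, was at 7.10, 7.38 and 6.0 in the control and at 8.05, 6.39 and 7.65 in Chd7f/f leukemias. The 2 lowest values of Vcam1 came from different genotypes, and its difference of 0.54 (SE 0.53) was 0.13 without control replicate 3. On the same arrays, control replicate 3 and Chd7f/f replicate 2, the monocyte and macrophage list was at its lowest, 5.55 and 5.87. The highest values fell on different arrays, Chd7f/f replicate 1 for Vcam1 and Chd7f/f replicate 3 for the list (6.98). The stroma list was at 4.72 in control replicate 3, its lowest, and at 5.05 in Chd7f/f replicate 2. The part of such cells in the level of Vcam1 was not tested.

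Icam2, a further LFA-1 ligand, was at 6.74, 7.62 and 7.19 in the control and at 6.21, 8.10 and 7.61 in Chd7f/f leukemias. Its lowest and highest values were in the same leukemias as those of Itga6. Cd44, the hyaluronan receptor of leukemia stem cells, was at 6.91, 7.46 and 8.21 in the control and at 7.23, 6.49 and 7.80 in Chd7f/f leukemias. Pecam1, the junctional molecule of vessels and leukocytes, was highest in Chd7f/f replicate 3, at 6.13, with 5.10 to 5.54 elsewhere. The differences of Icam2, Cd44 and Pecam1 were 0.12 (SE 0.51), -0.35 (SE 0.44) and 0.20 (SE 0.28). Cd44 was at -0.0061 without Chd7f/f replicate 2 and at -0.0068 without control replicate 3. Icam2 turned to -0.27 without Chd7f/f replicate 2, and Pecam1 to -0.076 without Chd7f/f replicate 3.

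The partners and activators of integrins, Cd47, Fermt3, Tln1 and Cd9, all had ranges under 1. Cd47, an integrin-associated protein that binds SIRP-alpha on phagocytes, stayed between 11.71 and 12.08. Fermt3, which encodes kindlin-3, the kindlin of blood cells, had its low value, 11.44, in control replicate 1 against 11.84 to 12.28 on the rest, and Tln1, the talin-1 gene, lay between 10.16 and 10.73. Cd9, a tetraspanin that binds integrins, was at 5.50, 6.13 and 5.99 in the control and at 5.24, 5.28 and 5.65 in Chd7f/f leukemias. Only Chd7f/f replicate 3 reached above the lowest control value. The difference of -0.48 (SE 0.21) was the lowest of the 30 tested genes of the set and did not pass the test (limma, adjusted p = 0.9998).

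The 24 genes above the limit spread more between leukemias than all tested genes, a set not matched to them in level. The median range over the 6 arrays was 1.02 for the 24 genes above the limit and 0.57 for all tested genes. The median SD within genotypes was 0.38 and 0.22, and 19 of the 24 genes were above the median of all tested genes in that SD. Genes under the background limit, which hardly vary, are among all tested genes and not among the 24. No comparison with genes of like level was made, so the larger spread is not shown to belong to adhesion genes. Itga5, Itga6, Itgb2, Itgb3 and Vcam1 had ranges over 2, while 11 of the 24 genes had ranges under 1.

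Control replicate 1 was the lowest array for 7 of the 24 genes: Itga9, Itgav, Itgb3, Itgb7, Itga2b, Icam1 and Fermt3. That is 29.2%, against 16.5% of all tested genes. It was the highest array for Itga4, Itgb1 and Cd47, 12.5% of the 24 against 24.4% of all tested genes. In this leukemia the mast cell and basophil markers had a mean log2 level of 7.38, against 7.94 to 8.41 on the other arrays. Fcer1a, the alpha chain of the IgE receptor, was at 10.75 there, against 12.06 to 12.29 elsewhere. Ms4a2 (11.05), Hdc (9.86), Cd200r3 (6.42) and Il4 (6.56) were also lowest there. Cpa3 and Cma1 did not follow. Cpa3 was at 13.01 there, within the range of the other arrays. Cma1 was at 8.40, with its lowest value, 6.77, in Chd7f/f replicate 2. The erythroid list was at 10.68 there, against 8.97 to 10.14 elsewhere. Slc4a1 was at 11.47 there, against 5.92 to 9.14 elsewhere. Tfrc (11.06), Car2 (12.78), Ermap (11.80), Rhag (12.02) and Trim10 (8.56) were also highest there. Gata1 (9.31) and Car1 (11.09) were lowest there, and Klf1 and Epor were neither. The part of these cell types in the adhesion genes was not tested.

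**Figure D4:**
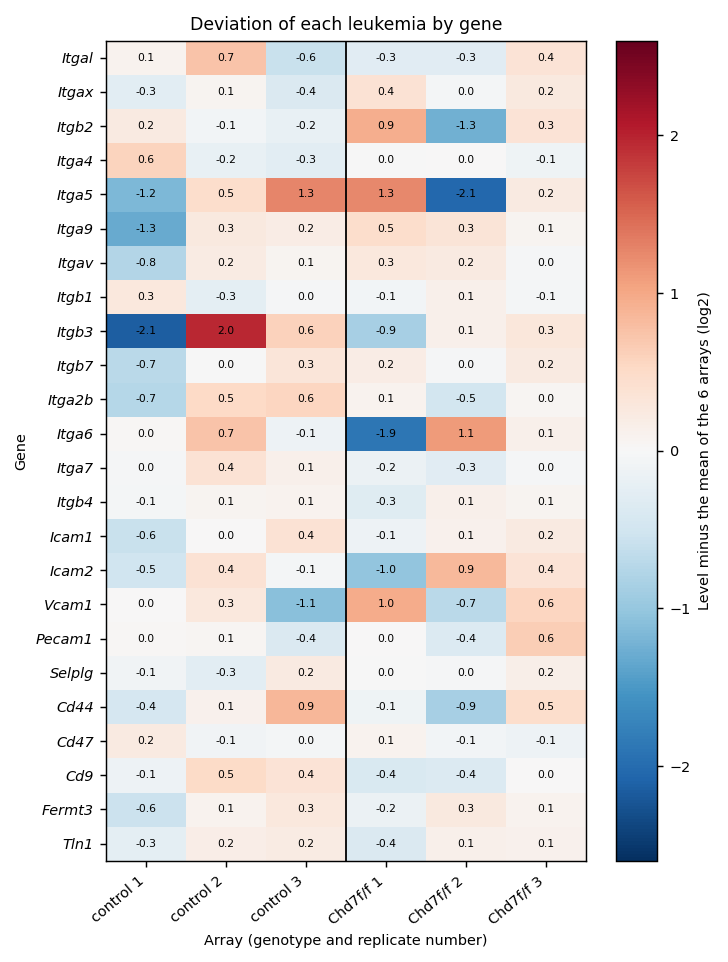
Level of each of the 24 genes above the background limit minus its own mean over the 6 arrays (log2), with the value printed in each cell, red above and blue below the mean; the black line parts control from Chd7f/f arrays. The deepest colours are Itgb3 in control replicates 1 (-2.1) and 2 (2.0), Itga5 in Chd7f/f replicate 2 (-2.1) and Itga6 in Chd7f/f replicate 1 (-1.9), and no gene has its genotypes on opposite sides throughout.

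Promoter sequence is shown for 3 of the genes with their lowest or highest value in control replicate 1: Fermt3 and Itga2b, lowest there, and Itga4, highest there. Each run is the 250 bases before the start site from RefSeq (GRCm38.p6), 5′ to 3′ on the strand of the gene, chr19:7019470-7019719 (minus) for Fermt3, chr11:102469884-102470133 (minus) for Itga2b and chr2:79255176-79255425 (plus) for Itga4. Capitals mark matches on either strand to the core TGTGGT of RUNX factors, whose partner is Cbfb, and to the motif GAGGAA of ETS factors. Other forms of ETS sites were not searched. The motifs AGATAA and also TGATAA of GATA factors were searched as well and had no match in these windows. None of these motifs contains another.
Fermt3: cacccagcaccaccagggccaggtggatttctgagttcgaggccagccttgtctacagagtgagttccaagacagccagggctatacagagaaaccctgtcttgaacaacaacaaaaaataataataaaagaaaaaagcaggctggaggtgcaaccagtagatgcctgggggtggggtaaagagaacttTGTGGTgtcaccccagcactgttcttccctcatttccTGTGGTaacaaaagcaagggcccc
Itga2b: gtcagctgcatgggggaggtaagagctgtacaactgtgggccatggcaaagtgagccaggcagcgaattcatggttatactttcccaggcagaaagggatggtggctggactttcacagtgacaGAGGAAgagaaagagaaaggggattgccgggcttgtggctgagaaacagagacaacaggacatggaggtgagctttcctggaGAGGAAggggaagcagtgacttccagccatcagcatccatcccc
Itga4: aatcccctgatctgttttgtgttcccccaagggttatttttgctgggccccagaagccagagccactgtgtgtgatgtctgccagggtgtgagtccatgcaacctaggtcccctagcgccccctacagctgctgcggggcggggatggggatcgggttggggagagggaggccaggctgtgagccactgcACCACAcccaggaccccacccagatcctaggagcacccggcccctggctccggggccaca

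Fermt3 held 2 matches to the RUNX core, Itga4 held 1 and Itga2b held 2 matches to the ETS motif. Other genes with their lowest or highest value in control replicate 1 were not all alike in this. Itga9, Itgb7, Icam1 and Cd47 had no match to any of the motifs. Itgav held 2 matches to the ETS motif and Itgb1 held 1, and Itgb3 had no window. The 3 windows shown thus do not stand for the genes that were outlying in that leukemia. The RUNX core was in 3 of the 25 windows of the 22 genes matched by symbol and in 14.05% of all 32851 windows. The ETS motif was in 9 of the 25 windows and in 23.3% of all windows, and a GATA motif in 2 of the 25 and 16.6% of all. A match describes the letters of the window and is not a measured binding site.

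Between genotypes, none of the 30 genes that passed the filter on low values had an adjusted p under 0.05. In the limma fit over 15526 genes, 0 genes (0%) passed after adjustment, and 1.84% had an unadjusted p under 0.05 (0.696% higher and 1.15% lower in Chd7f/f leukemias). Of the 30 genes 0 had an unadjusted p under 0.05, the smallest being 0.0574 for Itga2 (limma). The other 4 genes, Itga3, Itga8, Itgb6 and Itgb8, were too low to be tested. Of the 30, 16 were higher and 14 lower in Chd7f/f leukemias, where 43.7% of all tested genes were higher. The median difference was 0.015, and -0.027 over all tested genes. Differences ran from -0.48 for Cd9 to 0.83 for Itgam.

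The values of the genotypes did not overlap for 3 of the 30 genes, 2 of them higher and 1 lower in Chd7f/f leukemias, while 6.81% of all tested genes did not overlap, 2.45% higher and 4.37% lower. Itga1 was at 4.04, 4.16 and 3.96 in the control and at 4.32, 4.30 and 4.20 in Chd7f/f leukemias. Itgb5, a partner of Itgav, was at 4.37, 4.30 and 4.28 in the control and at 4.56, 4.41 and 4.78 in Chd7f/f leukemias. Itga2, the collagen receptor chain, was at 4.56, 4.32 and 4.43 in the control and at 4.16, 4.25 and 4.06 in Chd7f/f leukemias. Itga1 and Itga2 were under the background limit on all 6 arrays and Itgb5 on 5, and their differences were 0.22, -0.28 and 0.26. Of the 24 genes above the limit on every array, 0 parted the genotypes, and 12 were higher and 12 lower in Chd7f/f leukemias.

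**Figure D5:**
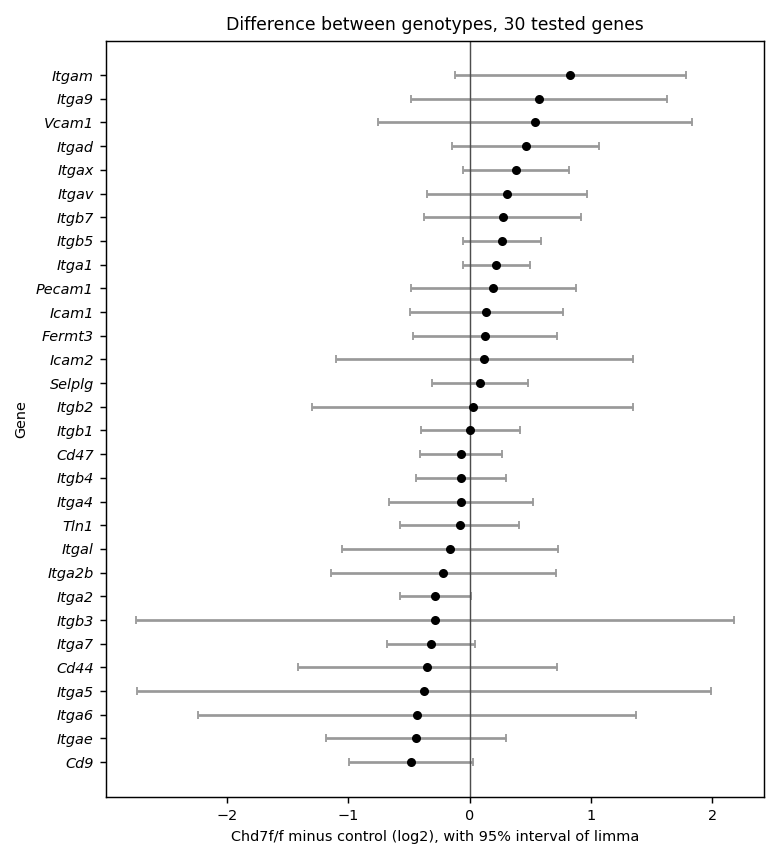
Difference between genotypes (Chd7f/f minus control, log2) of the 30 tested genes, ordered by size, with the 95% interval of the limma fit on 3 against 3 arrays as bars. The differences run from -0.48 for Cd9 to 0.83 for Itgam, each interval includes 0, and the widest are those of Itgb3, Itga5 and Itga6.

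The difference kept its sign under each alternative that gave a value for 11 of the 30 genes. Changing the filter, the prior or the replicate block leaves the difference itself as it is, so these alternatives could not turn a sign. The 11 were Itgam, Itgax, Itgad, Itgb5, Itga1 and Vcam1, higher in Chd7f/f leukemias, and Itgae, Itga2, Itga7, Cd44 and Cd9, lower, though Cd44 was close to 0 without either of 2 arrays. Most of the 11 were near background. Itgam, Itgad, Itgb5, Itga1, Itgae and Itga2 are the 6 tested genes that were not above the background limit on every array. Itgax, Itga7 and Cd9 were above the 99th percentile limit on no array. For 17 of the 30 genes leaving out 1 array was enough to turn the sign. Among all 30 genes and all alternatives the smallest adjusted p was 0.989.

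Genes that work beside the integrins were counted in 6 further lists. In integrin activation and inhibition, 17 of 20 measured genes were above the limit on every array, and 0 of 19 tested had an unadjusted p under 0.05. Rasgrp2, the exchange factor that loads Rap1 for inside-out activation, was at 5.54, 7.77 and 7.46 in the control and at 8.0, 8.72 and 7.37 in Chd7f/f leukemias. Its difference of 1.11 (SE 0.65) was 0.42 without control replicate 1, the lowest array. Fyb, the adaptor ADAP, did not overlap between genotypes and differed by 0.22 (SE 0.12), while Skap1 differed by -0.24 and Dok1, which competes with talin for the beta tail, by 0.20. Dok1 was at 0.018 without control replicate 1 and Skap1 at -0.073 without control replicate 2.

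In focal adhesion and integrin signalling, 18 of 23 measured genes were above the limit on every array and 0 of 21 tested had an unadjusted p under 0.05. Parvg, the parvin of blood cells that links integrins to actin, was at 10.14, 10.04 and 9.73 in the control and at 9.29, 5.74 and 9.44 in Chd7f/f leukemias. The values did not overlap, and the difference of -1.81 (SE 0.98) was -0.61 without Chd7f/f replicate 2, the array that also had the lowest Itgb2 and Itga5. The Src family kinase genes Fgr and Fyn differed by 0.37 (SE 0.16) and 0.32 (SE 0.19), and the adaptor gene Bcar1 by 0.27 (SE 0.16). Fyn was at 0.14 and Fgr at 0.51 without Chd7f/f replicate 2, Fgr at 0.24 without Chd7f/f replicate 3, and Bcar1 at 0.42 without control replicate 2. Fgr did not overlap between genotypes, and it reached 5.30 at most, near the background limit.

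Of the matrix ligands, 14 of 30 measured genes were above the limit on every array, and the fibrinogen chains Fga, Fgb and Fgg on none. Among 27 tested, 1 higher and 1 lower gene had an unadjusted p under 0.05, where 1.84% of all tested genes did. Over the alternatives this count of 2 ran from 0, with a filter at the 50th percentile, to 6, with array weights. It was 4 after quantile normalization again. The genotypes did not overlap for 4 higher and 4 lower genes of the 27, against 2.45% and 4.37% of all tested genes. Postn, the periostin gene, and Vtn, the vitronectin gene, were among them. Postn differed by 0.84 (SE 0.28) and Vtn by -0.63 (SE 0.17), both at levels between 3.41 and 4.87 (limma, adjusted p = 0.9998 each). Tgfbi, a ligand of Itgav and Itgb1 integrins and a monocyte product, was at 7.0, 8.28 and 6.47 in the control and at 7.99, 8.42 and 9.74 in Chd7f/f leukemias, a difference of 1.46 (SE 0.61). It was 0.95 without Chd7f/f replicate 3, the array with the highest means of the monocyte and macrophage list and of the neutrophil list. Lama5, a laminin chain, differed by -1.31 (SE 0.57), and by -1.99 without control replicate 3.

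In other adhesion receptors 0 of 26 tested, among tetraspanins 0 of 17 and among selectin ligand enzymes 0 of 9 had an unadjusted p under 0.05. Cdh2, the N-cadherin gene, was at 4.72, 6.71 and 5.02 in the control and at 5.44, 9.998 and 9.70 in Chd7f/f leukemias. It was high in 2 of the 3 Chd7f/f leukemias, the third lay inside the range of the control, and the difference was 2.90 (SE 1.28; limma, adjusted p = 0.9998), and 4.37 without Chd7f/f replicate 1. The others named there, Madcam1, Cd84 and Emb, differed by -0.24, 0.89 and 0.68. Madcam1 did not overlap between genotypes, at levels of 4.38 to 4.89, near the background limit. Its difference was -0.14 without Chd7f/f replicate 1. That of Cd84 was 0.28 without control replicate 1, and that of Emb 0.31 without control replicate 3.

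Of 18 measured tetraspanin genes 15 were above the limit on every array, and 9 of the 17 tested were higher and 8 lower in Chd7f/f leukemias. Control replicate 1 was the outlying array for Tspan8 and Tspan32, 2 of the 4 named. Tspan8 was at 5.72 there, against 8.54 to 8.94 on the other 5 arrays, and Tspan32 at 9.49, against 6.44 to 7.50. Their differences, 1.06 and -1.15, were 0.055 and -0.42 without that array. Tspan18 and Tspan13 differed by 0.49 and 0.16, and Tspan18 by 0.14 without that array and Tspan13 by 0.080 without Chd7f/f replicate 1. St3gal6, a sialyltransferase of selectin ligands, reached 9.10 in control replicate 1 against 3.88 to 5.18 elsewhere, and its difference of -1.62 was -0.092 without that array. Gcnt1, St3gal4 and Tpst2, the other enzymes named, differed by 0.18, -0.24 and 0.15. Without control replicate 1 Tpst2 turned to -0.13 and Gcnt1 was at 0.057, and St3gal4 was at -0.022 without control replicate 3.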

How the data were processed

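RNA of sorted spleen leukemia cells was hybridised to Affymetrix whole-transcript arrays, 1 array for each of 6 samples. The authors deposited log2 values, 1 per probe set, made with Affymetrix Expression Console and RMA per the submitters' processing notes (version not given in the sources used here). Arrays are equalised by RMA, so differences in total signal are lost. The 41345 probe sets lay between 1.78 and 13.5. Gene names came from the platform annotation, updated by Entrez identifier: 23521 had 1 gene symbol, 1814 several and 16010 none listed. The probe set with the highest mean stood for a gene. Genes at or above the 30th percentile of means, 4.13, were tested with limma 3.58.1 in R 4.3.3 (no covariate), adjusted by Benjamini-Hochberg over 15526 genes. Steps were tested on simulated data. The genes and lists were chosen with earlier results of these data known. All 34 genes were named, and of each further list the up to 4 with the smallest p. Alternatives changed normalization, filter, probe sets, prior, array weights, replicate block, background limit, threshold and arrays. Plots were drawn with matplotlib.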

Additional observations from a re-analysis of the deposited data

How the results depend on the processing

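No gene of the 30 and no gene overall passed an adjusted p of 0.05 (limma) under any alternative, nor at an adjusted p under 0.1. The count of the 30 at an unadjusted p under 0.05 was 0, and went to 1 after quantile normalization again (Itgax) and without a filter (Itga2), 2 with a trended and robust prior (Itga1, Itga2), 4 with array weights (Itgam, Itgax, Itgb5, Itga2), 3 without both arrays numbered 1 (Itgad, Itga2b, Cd9), and 0 to 4 when each array was left out in turn. The 4 came without control replicate 1 (Itgb3, Itga2b, Itga7, Cd9) and without Chd7f/f replicate 2 (Itgam, Itgax, Itgb2, Itgb5). Over all genes the unadjusted count was 286, with 530 without a filter, 159 with a filter at the 50th percentile, 571 with array weights and 272 to 481 without 1 array, 481 of them without control replicate 2. Genes of the 30 whose genotypes did not overlap numbered 3, with 0 after the 50th percentile filter, 12 without both arrays numbered 1 and 4 to 10 without 1 array, the last without control replicate 1. The median difference of the 30 lay between -0.055 and 0.095 without 1 array. With the background limit at the 99th percentile 14 genes and 5 pairs were above it on every array, and at the 90th percentile 28 and 16. Low levels near that limit are the least certain.

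No pairing of the samples by replicate number was seen in the values. Deviations of same-numbered arrays correlated at 0.027, -0.025 and 0.034. Each was below the highest correlation between different numbers (0.057 to 0.089). With the replicate block the unadjusted count of the 30 was 2 (Itgad and Cd9) and that over all genes 332.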

Other observations

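For 3 genes a second probe set was deposited and not used above. That of Itgav was between 3.78 and 4.30 and under the background limit, with a difference of -0.053 against 0.31 for the one used. That of Cd9 was between 4.02 and 4.37 and differed by -0.11, and that of Selplg was between 6.39 and 6.83 and differed by 0.21.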
